A study of Mus musculus with 6 samples.

Results

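The genes described here run the glutathione, thioredoxin and peroxiredoxin systems, together with the superoxide dismutases, catalase and the transcription factors of the NRF2 pathway other than its inhibitor Keap1. They were taken by gene symbol from 1 expression table: 45 members, all found, of 27734 genes. The table came from chondrocytes, the cells that make cartilage, isolated from E18.5 mouse ribs, shortly before birth, and lysed without culture. One group was wild type (3 libraries) and the other was Jab1 cKO, Jab1flox/flox; Col2a1-Cre (3 libraries). In the mutants Cre recombinase is driven by the promoter of Col2a1, the main collagen gene of cartilage, so cells of the rib that never used that promoter would keep Jab1. The labels do not say whether the wild-type embryos carried the floxed allele or the Cre, nor which embryos or litters the libraries represent. The error behind each p-value is thus the scatter among these libraries. It may be technical only in wild type, while the mutant libraries differed in sex makeup (values below). How far it reflects separate embryos or litters is not known. Jab1 is the catalytic subunit of the COP9 signalosome, which removes the small protein NEDD8 from cullin ubiquitin ligases. Levels are FPKM (fragments scaled to transcript length and to the mapped fragments of a library), so they may be set beside each other between genes. Libraries are named by genotype and column number (0, 1 and 2).

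Cells make the tripeptide glutathione from glutamate, cysteine and glycine. Glutathione peroxidases spend it on peroxides, glutathione transferases attach it to reactive compounds, and glutathione reductase restores it. The thioredoxin system runs beside it: thioredoxin reductase passes electrons from NADPH to thioredoxin, which keeps peroxiredoxins in their reduced, active form. NRF2, the protein of Nfe2l2, switches on many of these genes when its degradation through KEAP1 and a cullin ligase is slowed, and BACH1 occupies the same DNA sites as a repressor. Cartilage has little blood supply, and chondrocytes live at low oxygen in a matrix they secrete through a large endoplasmic reticulum.

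The gene that encodes Jab1, Cops5 (chromosome 1, 10024601 to 10038168, build mm10), was at 42.3, 39.8 and 40.1 FPKM in wild-type columns 0, 1 and 2 and at 17.0, 18.0 and 17.2 FPKM in the mutant columns. Its log2 fold change was -1.18 (SE 0.0599, adjusted p = 0.00065, limma), and the groups did not overlap. Some libraries stood apart in other ways. Xist, the RNA of the inactive X chromosome, was at 63.1 to 65.9 FPKM in the wild-type columns, 37.3 in mutant column 0 and 0.0176 and 0.0244 in mutant columns 1 and 2. The summed level of 4 Y-linked genes spanned 0.0281 to 0.639 FPKM over the wild-type libraries and reached 14.6, 82.8 and 71.7 FPKM in the mutants (columns 0, 1 and 2), so genotype and the sex makeup of the libraries cannot be told apart. Immediate-early genes, which respond to tissue dissociation, summed to 1777 FPKM in mutant column 0 against 174 and 182 in the other mutants and 109 to 129.5 in wild type. The title of wild-type column 0 carries a different day from the titles of the other libraries. The cartilage identity of the cells could be checked with 12 measured marker genes of 15 listed. They summed to 10981.5 to 12803 FPKM in wild type and to 12074, 7775 and 7469 in mutant columns 0, 1 and 2. Of the 12, 2 fell by limma, and 4 were lower and 0 higher at an unadjusted p under 0.05. Their median log2 fold change was -0.45. Markers of other cells also moved. The 12 erythroid markers summed to 196 to 221 FPKM in wild type and 15.2 to 49.7 in the mutants (5 of 5 tested fell). The 8 granulocyte markers summed to 74.0 to 210.5 and 1.07 to 7.04 FPKM (3 of 4 tested fell). The 11 skeletal muscle markers summed to 150.1 to 175 and 54.4 to 79.2 FPKM (1 of 6 tested fell). Tnnt3, the gene that fell, made most of that sum; the other 10 summed to 12.8 to 29.0 FPKM in wild type and 4.34 to 15.7 in the mutants, which overlap. The 7 adipocyte markers summed to 17.8 to 22.2 and 36.1 to 47.6 FPKM (3 of 4 tested rose). For macrophages and osteoclasts, the 12 markers summed to 104 to 175 FPKM and 87.5 to 311 FPKM (0 of 10 tested were called by limma, and 2 were lower at an unadjusted p under 0.05). These 2 were Lyz2 (mean 31.1 FPKM in wild type and 7.57 in the mutants) and Ptprc (1.88 and 0.373). Ctsk was the highest of the list, at 56.8 ± 10.1 and 113 ± 64.6 FPKM (SD, n = 3). The other 11 summed to 58.6 to 115 FPKM in wild type and 24.1 to 125 in the mutants. Of the 10 tested, 3 had a log2 fold change above 0 and 7 below. Of the endothelial and osteoblast markers, 0 of 3 and 0 of 6 tested were called by limma, and 0 at an unadjusted p under 0.05; of the fibroblast, perichondrium and tendon markers, 1 of 8 tested fell. No gene of these lists was at 0 in every library. In bulk RNA, fewer cells of a type and less RNA per cell cannot be told apart, and the part of these other cells in the results that follow was not tested.

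Most of the called members were higher in the mutant chondrocytes. Of the 45 members, 42 reached a mean of 1 FPKM and were tested; the other 3, Gstt1, Sod3 and Osgin1, were too low. With limma on log2(FPKM + 1) and Benjamini-Hochberg adjustment over all 14012 genes tested, 9 members rose (Bach1, Gclc, Gss, Gpx3, Gsta4, Gstm1, Gsto1, Txnrd1 and Srxn1), 2 fell (Gstk1 and Prdx5) and 31 did not pass an adjusted p of 0.05. The 11 called members were 26.2% of those tested, where 6.07% of all genes tested were called. By direction, 21.4% of the tested members rose, beside 3.48% of all genes, and 4.76% fell, beside 2.59%. The members were chosen with earlier results of these data known, so these shares are descriptions and no test. The wild-type and mutant libraries did not overlap for 23 of the 42 tested members (54.8%, beside 32.2% of all genes). Of these, 19 were higher in the mutants and 4 lower, where 16.3% of all genes were higher without overlap and 15.9% lower. At an unadjusted p under 0.05 the count was also 23, or 54.8%, beside 24.7% of all genes. The median log2 fold change over the tested members was 0.19, beside -0.00 over all genes tested, with 29 values above 0 and 13 below. Against the wild-type mean, the median member stood at 0.15, 0.21 and 0.32 on the log2 scale in mutant columns 0, 1 and 2. Together the members held 0.280 to 0.300% of all FPKM in the wild-type libraries and 0.307 to 0.349% in the mutants.

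The calls depended on which libraries were fitted. Without wild-type column 0, 1 or 2, the members that rose numbered 3, 6 and 2, beside 104, 125 and 99 of all genes. Without mutant column 0, 1 or 2 they numbered 8, 6 and 3, beside 377, 183 and 131 of all genes. With all 6 libraries, 487 of all genes rose, so calls became fewer over all genes too. Gclc and Gpx3 rose in each of these 6 fits. Without the filter on low values Bach1, Gss, Gsta4, Gstk1 and Gsto1 lost their calls (adjusted p = 0.063 to 0.093). When the log2 of the summed Y-linked level was added to the limma model (correlation with genotype 0.955), 0 of the 42 were called (lowest adjusted p of the 11 members, 0.12). The standard errors grew in that fit, for Gclc from 0.101 to 0.342, while the log2 fold changes moved both ways. Gclc was at 1.33, Gstm1 at 2.27, Gpx3 at 1.76, Gss at 0.19 and Gsta4 at 0.18. With the same level on the linear scale, a setting chosen after seeing the data (correlation 0.798), Gclc, Gstm1 and Prdx5 were called.

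**Figure D1:**
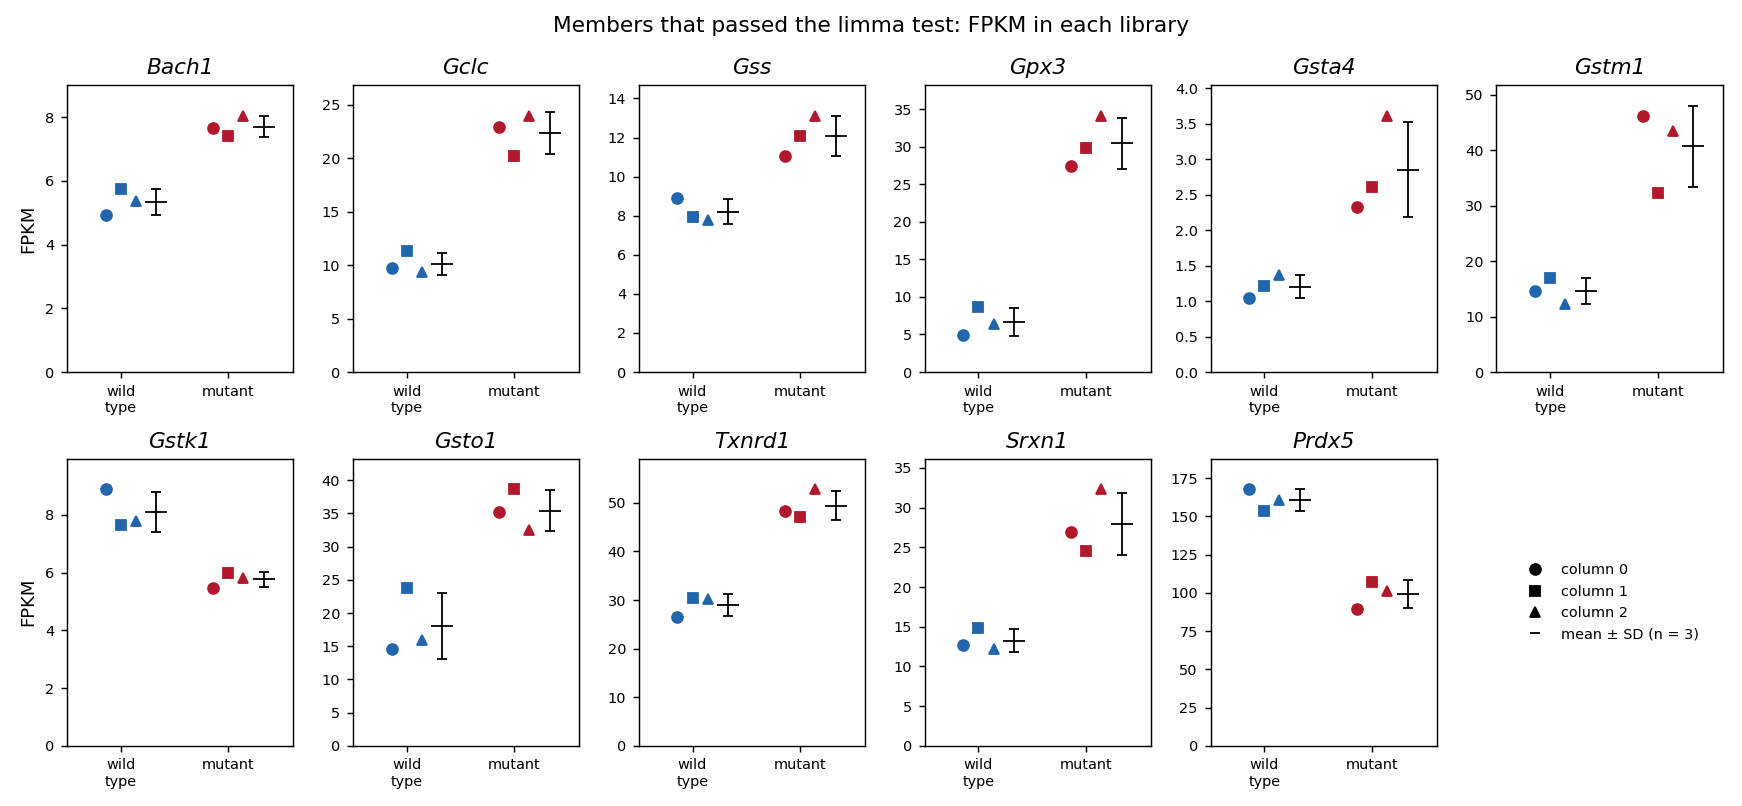
Level in FPKM (linear axes from 0, 1 panel per gene) of the 11 called members in each library; points are libraries, blue for wild type and red for mutant, with the column number as the shape, and bars are the mean ± SD (n = 3). The 9 genes that rose have 3 mutant points above the 3 wild-type points, and Gstk1 and Prdx5 have them below.

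The promoters of the members were searched for the antioxidant response element, the short DNA site to which NRF2 binds with a small MAF partner, since many of these genes are known NRF2 targets. The core searched was TGACNNNGC, on both strands, in the 250 bases before and 50 bases after each RefSeq start site (build GRCm38.p6, the same assembly as mm10). Promoters were given for 40 of the 45 members; Gclc, Gsr, Gsta4, Prdx6 and Sod3 had no entry. The core was found in 9 of the 40 (22.5%) and in 14.0% of all 27025 genes with a promoter. Counted by promoter, it was found in 9 of 53 member promoters (17.0%) and in 12.4% of all 32851. The 9 matches are shown because they differ in the letters that the core leaves free. Each is written 5′ to 3′ on the strand that carries it, with the core in capitals and 10 bases on either side.
Nfe2l2: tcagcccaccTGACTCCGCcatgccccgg
Srxn1: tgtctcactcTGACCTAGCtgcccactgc
Gstm5: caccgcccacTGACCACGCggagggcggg
Gclm: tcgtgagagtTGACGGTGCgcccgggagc
Prdx1: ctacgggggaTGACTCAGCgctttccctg
Mgst1: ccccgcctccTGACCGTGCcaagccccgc
Txnrd1: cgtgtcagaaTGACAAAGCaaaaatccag
Me1: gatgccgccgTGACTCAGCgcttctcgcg
Sod1: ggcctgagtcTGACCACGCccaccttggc
Prdx1 and Me1 carry the same core, and Gstm5 and Sod1 share another. The cores lie at chr2:75704895-75704903 (Nfe2l2, minus strand), chr2:152105552-152105560 (Srxn1, minus), chr3:107895812-107895820 (Gstm5, plus), chr3:122245423-122245431 (Gclm, minus) and chr4:116685466-116685474 (Prdx1, minus). The others lie at chr6:138140471-138140479 (Mgst1, minus), chr10:82859114-82859122 (Txnrd1, minus), chr9:86695912-86695920 (Me1, minus) and chr16:90220706-90220714 (Sod1, minus). The match in Srxn1 begins at base 29 of the transcript, inside the first exon. The match in Me1 begins 6 bases before a start site and that in Nfe2l2 240 bases before it. Of the 7 members that rose and had a promoter entry, Srxn1 and Txnrd1 held the core. A match is a description of letters, and other members may have sites outside this window.

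Of the members that rose, Txnrd1 is shown with its whole upstream stretch, because it has 3 RefSeq starts and only the second holds the core. The 250 bases before that start are chr10:82858956-82859205 on the plus strand, with the reverse complement of the core in capitals, beginning 92 bases before the start.
Txnrd1: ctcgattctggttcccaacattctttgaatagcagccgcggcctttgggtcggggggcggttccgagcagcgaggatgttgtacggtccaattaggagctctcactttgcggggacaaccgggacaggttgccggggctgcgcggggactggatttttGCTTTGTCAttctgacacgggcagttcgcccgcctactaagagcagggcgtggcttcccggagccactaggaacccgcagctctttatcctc

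Among the regulators, Bach1 rose and Nfe2l2 and Nfe2l1 did not pass the test. Bach1 (chromosome 16, 87698945 to 87733346), the haem-sensing repressor of NRF2 target genes, was at 4.94, 5.75 and 5.36 FPKM in wild-type columns 0, 1 and 2 and at 7.65, 7.41 and 8.04 in the mutant columns. All 3 mutant values were above the wild-type ones. The mean went from 5.35 ± 0.408 to 7.70 ± 0.319 FPKM (SD, n = 3). On the log2 scale that was a fold change of 0.46 (SE 0.0767, adjusted p = 0.033 with limma). No fit without 1 library kept this call (adjusted p = 0.060 to 0.12). Nfe2l2, which encodes NRF2, was at 20.6, 22.6 and 18.0 FPKM in wild type and at 25.1, 26.7 and 25.5 in the mutants. The groups did not overlap, but the log2 fold change of 0.33 (SE 0.0926) had an unadjusted p of 0.013 and an adjusted p of 0.10 by limma. Nfe2l1, whose protein NRF1 controls proteasome genes, was the highest of the 3 regulators, at 84.3 ± 12.8 and 83.8 ± 9.34 FPKM (SD, n = 3), and its libraries overlapped (adjusted p = 0.99 with limma).

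Among the genes that make and recycle glutathione, genes of both synthesis steps rose, with log2 fold changes of 1.07 and 0.51. Gclc (chromosome 9, 77754535 to 77794485), the catalytic subunit of glutamate-cysteine ligase, the rate-limiting enzyme of the path, was at 9.72, 11.3 and 9.36 FPKM in wild-type columns 0, 1 and 2. In the mutant columns it was at 22.9, 20.2 and 24.0 FPKM. The lowest mutant value was well above the highest wild-type one, and the log2 fold change was 1.07 (SE 0.101, adjusted p = 0.0073 by limma). Without each library in turn the adjusted p was 0.017 to 0.042. Gss (chromosome 2, 155563181 to 155592810), glutathione synthetase, which adds glycine in the last step, was at 8.92, 7.92 and 7.77 FPKM in wild type and at 11.0, 12.1 and 13.1 in the mutants. Its groups did not overlap, and its log2 fold change was 0.51 (SE 0.0893, adjusted p = 0.037 by limma). That call remained without mutant column 0 (adjusted p = 0.041) and was lost when any other library was left out (0.083 to 0.13). Gss exons overlap those of Acss2 and of 2 antisense genes, Gssos1 and Gssos2, on the opposite strand, and no source used here states how strand was counted.

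Gclm, the modifier subunit that lowers the amount of substrate the ligase needs, was at 8.21, 9.0 and 12.1 FPKM in wild type and at 12.6, 12.8 and 17.2 in the mutants. The mutants were all above the wild type, narrowly so for wild-type column 2, and the adjusted p was 0.16 (log2 fold change 0.50, SE 0.177, limma). The balance of the 2 subunits was described by the log2 ratio of Gclc to Gclm. It was 0.24, 0.33 and -0.37 in wild-type columns 0, 1 and 2 and 0.87, 0.66 and 0.48 in the mutant columns, so every mutant library had relatively more Gclc. The difference of 0.60 had a two-sided exact permutation p of 0.1, the smallest that 3 against 3 libraries can give, and fell to 0.38 without wild-type column 2. Gsr, glutathione reductase, was at 23.5 ± 2.72 and 27.6 ± 6.14 FPKM (SD, n = 3), with mutant column 0 at 21.0 inside the wild-type range and mutant columns 1 and 2 at 28.6 and 33.2 (limma adjusted p = 0.51). Slc7a11, the cystine transporter that supplies cysteine, was at 4.40, 3.75 and 3.28 FPKM in wild type and at 5.69, 3.62 and 3.48 in the mutants. Only mutant column 0 was above the wild type (limma adjusted p = 0.76). The 5 genes together summed to 55.4 ± 3.32 FPKM in wild type and 80.5 ± 9.30 in the mutants (SD, n = 3), and the share of Gclc in that sum went from 18.4 to 27.9%.

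Of the 5 glutathione peroxidases, 1 rose, Gpx3, which had the largest log2 fold change of the called members. Gpx3 (chromosome 11, 54902453 to 54910377), the secreted peroxidase found in plasma and extracellular fluid, was at 4.99, 8.70 and 6.45 FPKM in wild-type columns 0, 1 and 2. In the mutant columns it was at 27.4, 29.8 and 34.1 FPKM. The mean was 4.53-fold higher in the mutants (6.71 ± 1.87 against 30.4 ± 3.41 FPKM, SD, n = 3). On the log2 scale that was a difference of 2.05 (SE 0.190, adjusted p = 0.0072 with limma). It stayed called without each library in turn (adjusted p = 0.0070 to 0.041). Gpx3 is also made by fat cells. Of the adipocyte markers, Pparg, Cebpa and Lpl rose. Fabp4 averaged 3.01 FPKM in wild type and 9.04 in the mutants and did not pass (limma adjusted p = 0.33). The other markers of that list were too low to be tested. Adipoq averaged 0.139 FPKM in wild type and 0.134 in the mutants, and Plin1 0.0370 and 0.0676. Cidec was listed at 0 in wild type and averaged 0.0261 in the mutants. The part of fat cells in the Gpx3 difference was not tested.

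The other 4 peroxidases did not pass the test. Gpx1, the cytosolic and most widespread form, was at 89.5, 80.4 and 87.9 FPKM in wild type and at 101, 129 and 135 in the mutants. Its groups did not overlap and its log2 fold change was 0.49 (SE 0.126), but its adjusted p was 0.085, and 0.031 without mutant column 0 (limma). Gpx8, anchored in the endoplasmic reticulum, had the highest level of the family, at 175, 142 and 166 FPKM in wild type and at 184, 169 and 151 in the mutants. The groups overlapped (limma adjusted p = 0.77). Gpx7, also of the endoplasmic reticulum, was at 61.4 ± 8.32 and 60.9 ± 6.07 FPKM (SD, n = 3; limma adjusted p = 0.98). Gpx4, which reduces lipid peroxides in membranes and guards against ferroptosis, was at 11.3, 10.7 and 10.4 FPKM in wild type and at 10.3, 12.6 and 9.55 in the mutants (limma adjusted p = 0.97). Its level is uncertain, because 34.7% of the 50-base words of its transcripts also occur in the copy Gpx4-ps2. Within the family's summed FPKM, Gpx3 went from 2.10 to 7.77% and Gpx8 from 49.3 to 42.9%.

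Of the 10 glutathione transferases, 9 were tested: Gstm1, Gsto1 and Gsta4 rose and Gstk1 fell. Gstm1 (chromosome 3, 108012255 to 108017973), a mu-class enzyme, was at 14.7, 16.9 and 12.3 FPKM in wild-type columns 0, 1 and 2 and at 46.3, 32.4 and 43.5 in the mutant columns. The mutants were all above the wild type, at 2.78-fold the mean (log2 fold change 1.41, SE 0.172, adjusted p = 0.015 with limma). The call was lost when wild-type column 0 (adjusted p = 0.072), wild-type column 2 (0.057) or mutant column 2 (0.069) was left out. Gstm1 shares 18.9% of its 50-base words with other genes, mainly with the pseudogene Gstm2-ps1 (3.62 and 11.0 FPKM, limma adjusted p = 0.0099), so its reads may have been split between them. Its neighbour Gstm5 was the most abundant transferase, at 113, 91.5 and 92.0 FPKM in wild type and at 100.4, 119 and 119.9 in the mutants. Those groups overlapped (limma adjusted p = 0.38). Gstm2, at 1.02 ± 0.368 and 1.07 ± 0.214 FPKM (SD, n = 3), overlapped too (limma adjusted p = 0.92).

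Gsto1 (chromosome 19, 47854970 to 47864790), an omega-class enzyme that works as a thiol transferase, was at 14.6, 23.8 and 15.9 FPKM in wild type and at 35.2, 38.6 and 32.5 in the mutants. The groups did not overlap, with wild-type column 1 closest to the mutants (log2 fold change 0.96, SE 0.188, adjusted p = 0.044 by limma). The call was kept without wild-type column 1 (adjusted p = 0.018) and lost when any other library was left out (0.086 to 0.14). Gsta4 (chromosome 9, 78182774 to 78209349), which conjugates the lipid peroxidation product 4-hydroxynonenal, was low, at 1.04, 1.21 and 1.36 FPKM in wild type and at 2.33, 2.61 and 3.61 in the mutants. Its 3 mutant values were above the wild type (log2 fold change 0.79, SE 0.162, adjusted p = 0.049 with limma), and without each library in turn its adjusted p was 0.056 to 0.14. Gstk1 (chromosome 6, 42245935 to 42250447), the kappa-class enzyme of mitochondria and peroxisomes, was at 8.88, 7.63 and 7.78 FPKM in wild type and at 5.48, 5.98 and 5.83 in the mutants. It was below the wild type in each mutant library (log2 fold change -0.43, SE 0.0803, adjusted p = 0.042 by limma), and no fit without 1 library kept the call (adjusted p = 0.075 to 0.13).

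Gstp1, the pi-class enzyme, was at 26.7, 24.9 and 24.0 FPKM in wild type and at 42.0, 33.7 and 49.9 in the mutants. The groups did not overlap, and the adjusted p was 0.054, or 0.040 without mutant column 1 (log2 fold change 0.69, SE 0.147, limma). It shares 33.7% of its 50-base words with Gstp2, which was at 0.111 and 0.616 FPKM. The microsomal enzymes Mgst1 and Mgst3 spread widely among the mutants, from 1.08 to 4.47 and from 0.705 to 2.66 FPKM, with the lowest value of each in mutant column 0. Gstt1, not tested, was at 0.600 ± 0.137 and 1.02 ± 0.492 FPKM (SD, n = 3). Together the transferases summed to 172 ± 12.2 FPKM in wild type and 246 ± 15.6 in the mutants (SD, n = 3). In that sum Gstm1 went from 8.50 to 16.6% and Gstm5 from 57.5 to 46.0%.

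In the thioredoxin system the cytosolic reductase rose and the other 5 members did not pass the test. Txnrd1 (chromosome 10, 82833951 to 82897712), the selenoprotein that reduces cytosolic thioredoxin and whose promoter is printed above, was at 26.5, 30.4 and 30.1 FPKM in wild-type columns 0, 1 and 2. In the mutant columns it was at 48.4, 47.0 and 52.8 FPKM. Both groups were tight and far apart, with a log2 fold change of 0.75 (SE 0.0839, adjusted p = 0.013 by limma). Leaving out wild-type column 2 (adjusted p = 0.052) or mutant column 2 (0.0503) ended the call. Its substrate Txn1 was the most abundant gene of the system, at 125, 143 and 138 FPKM in wild type and at 166, 191 and 199.7 in the mutants. Its groups did not overlap (log2 fold change 0.45, SE 0.101), with an adjusted p of 0.060, or 0.045 without mutant column 0 (limma). Of the mitochondrial pair, Txnrd2 was at 2.59 ± 0.395 and 3.09 ± 0.252 FPKM (limma adjusted p = 0.37) and Txn2 at 30.0 ± 14.6 and 24.1 ± 4.65 FPKM (limma adjusted p = 0.77; SD, n = 3). Txn2 ranged from 16.4 to 45.4 FPKM among the wild-type libraries alone. Txnrd3, a form that also carries a glutaredoxin domain, was at 5.56, 5.50 and 4.25 FPKM in wild type and at 4.08, 5.19 and 5.23 in the mutants (limma adjusted p = 0.80). Txnip, which binds and inhibits thioredoxin and responds to glucose, was at 74.6, 90.7 and 58.2 FPKM in wild type and at 50.5, 76.2 and 71.6 in the mutants. Its groups overlapped (limma adjusted p = 0.67).

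The 6 peroxiredoxins did not move as a group: Prdx5 fell, 5 did not pass, and Srxn1, which repairs over-oxidised peroxiredoxins, rose. Srxn1 (chromosome 2, 152105516 to 152111376), sulfiredoxin, was at 12.7, 14.9 and 12.2 FPKM in wild-type columns 0, 1 and 2 and at 27.0, 24.6 and 32.3 in the mutant columns. The mean was 2.11-fold higher in the mutants, and no library of the groups overlapped (log2 fold change 1.02, SE 0.126, adjusted p = 0.016 with limma). Leaving out wild-type column 0 (adjusted p = 0.072) or wild-type column 2 (0.068) ended the call. Prdx5 (chromosome 19, 6906697 to 6910106), a peroxiredoxin of mitochondria, peroxisomes and cytosol, was at 168, 153 and 161 FPKM in wild type and at 89.3, 107 and 101 in the mutants. It was the highest of the family in each wild-type library, and each mutant value was below each wild-type one (log2 fold change -0.69, SE 0.0904, adjusted p = 0.018 by limma). The call was kept without mutant column 0 (0.029) or 1 (0.039) and lost when any of the other 4 libraries was left out (adjusted p = 0.066 to 0.083). Its exons overlap Trmt112 on the opposite strand.

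The remaining peroxiredoxins pointed both ways. Prdx6, which also acts on phospholipid peroxides, was at 46.8 ± 1.06 FPKM in wild type and 61.8 ± 8.15 in the mutants (SD, n = 3), without overlap and with an adjusted p of 0.090 (limma). Prdx1, the main cytosolic form, was at 86.1, 71.7 and 88.5 FPKM in wild type and at 90.0, 109.7 and 109.5 in the mutants (limma adjusted p = 0.18). Its mutant column 0 lay just above the wild type, and 8.29% of its 50-base words are shared, mainly with Gm21399. That pseudogene was at 66.7 FPKM in wild type and 83.6 in the mutants (limma adjusted p = 0.27), so the level of Prdx1 is uncertain. Prdx4, the form of the endoplasmic reticulum and an X-linked gene, was at 153, 125 and 128 FPKM in wild type and at 105, 113 and 98.6 in the mutants. Its groups did not overlap, with the mutants lower (log2 fold change -0.35, SE 0.106, limma adjusted p = 0.12). Prdx2, known for its abundance in red blood cells, was at 74.1 ± 7.47 and 68.0 ± 7.49 FPKM (limma adjusted p = 0.55), and Prdx3, of mitochondria, at 46.7 ± 0.976 and 51.8 ± 7.84 FPKM (limma adjusted p = 0.51; SD, n = 3). Prdx5 held 28.8 ± 0.593% of the summed FPKM of the peroxiredoxins and Srxn1 in wild type and 19.1 ± 0.756% in the mutants, while Prdx1 held 14.7 ± 1.04% and 19.9 ± 0.710% (SD, n = 3). The sum itself was 559 ± 36.1 and 517 ± 40.3 FPKM (SD, n = 3).

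**Figure D2:**
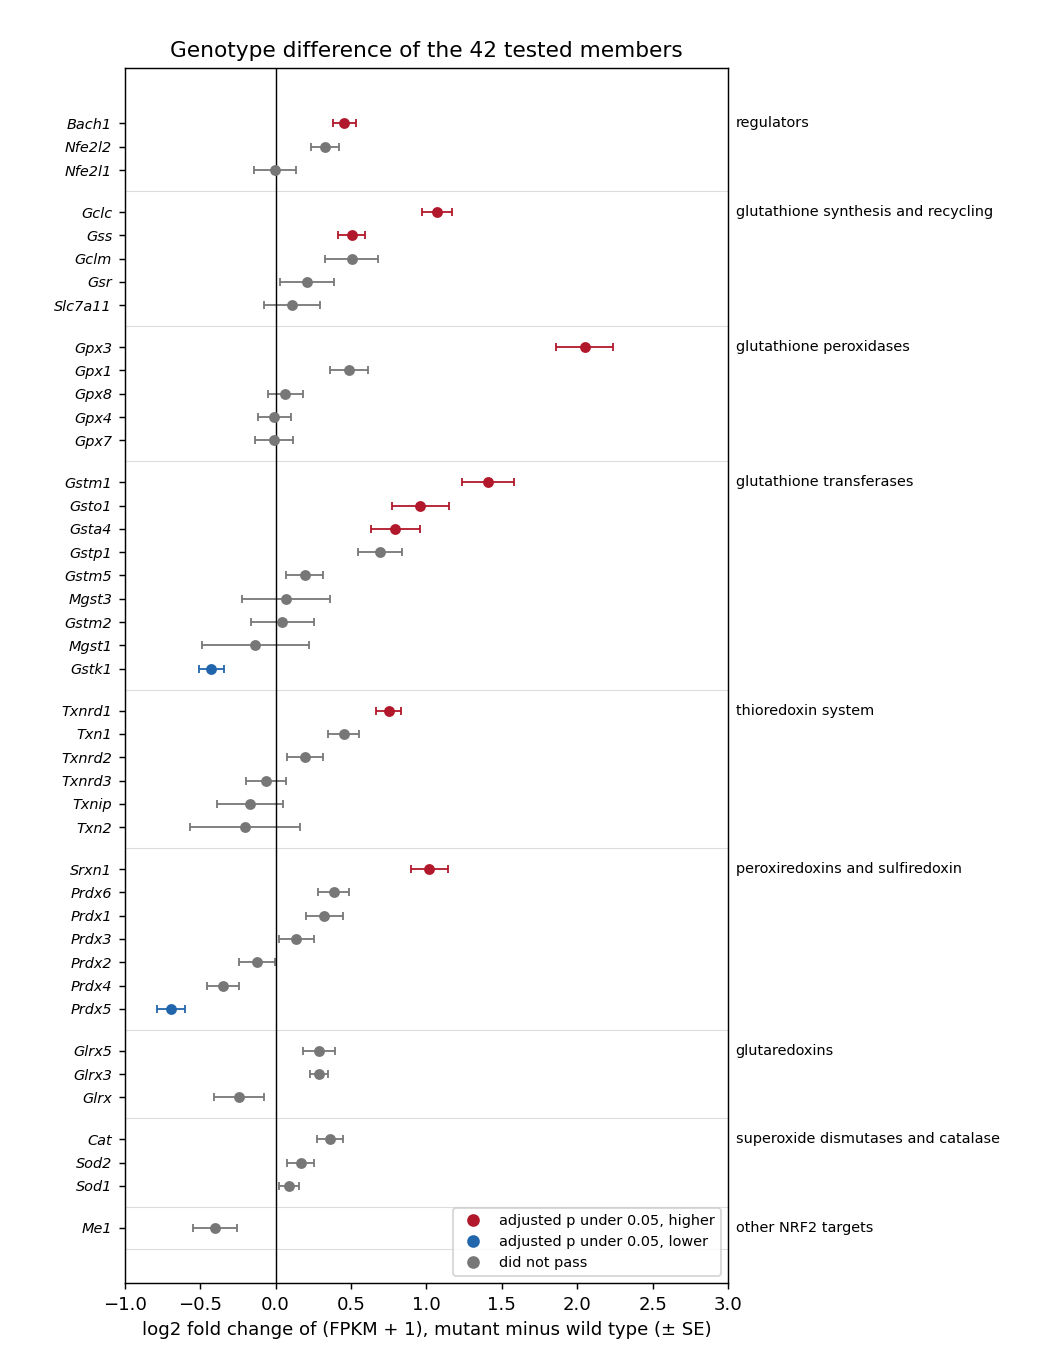
Log2 fold change (mutant minus wild type, on log2(FPKM + 1)) of the 42 tested members, grouped by role; bars are 1 standard error of the limma fit and colour marks the call (red higher, blue lower, grey not passed). Gpx3 at 2.05 and Gstm1 at 1.41 are farthest to the right, and Prdx5 at -0.69 is farthest to the left.

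No glutaredoxin, superoxide dismutase or catalase gene passed the test. Of the 3 glutaredoxins, 0 were called by limma, and Glrx3 and Glrx5 were higher at an unadjusted p under 0.05. Glrx3, a cytosolic iron-sulphur cluster carrier, was at 12.7, 12.3 and 11.9 FPKM in wild type and at 15.7, 14.8 and 15.1 in the mutants. Its small difference was larger than the spread of either group (log2 fold change 0.29, SE 0.0599, limma adjusted p = 0.052), and 15.1% of its 50-base words are shared, mainly with the pseudogene Gm12669. That pseudogene was higher than Glrx3, at 36.7 FPKM in wild type and 49.9 in the mutants (limma adjusted p = 0.073), so the level of Glrx3 is uncertain. Glrx5, the mitochondrial partner in cluster assembly, was at 21.8, 26.6 and 22.5 FPKM and at 29.9, 26.3 and 31.0 FPKM, so mutant column 1 overlapped the wild type (limma adjusted p = 0.17). Glrx, which removes glutathione from protein thiols, was at 6.77 ± 0.686 and 5.64 ± 1.31 FPKM (SD, n = 3; limma adjusted p = 0.42).

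Of the 3 tested genes that act on superoxide and hydrogen peroxide directly, 0 were called by limma and Cat was higher at an unadjusted p under 0.05. Cat, the peroxisomal catalase, was at 32.3, 26.7 and 28.7 FPKM in wild type and at 38.3, 38.5 and 36.5 in the mutants. The mutants were all higher (log2 fold change 0.36, SE 0.0848), with an adjusted p of 0.066 (limma). Sod1, the cytosolic copper and zinc enzyme, was at 96.2, 96.1 and 96.8 FPKM in wild type and at 106, 97.2 and 105 in the mutants. The mutants lay above the wild type, narrowly so for mutant column 1 (log2 fold change 0.09, limma adjusted p = 0.45). Sod2, the manganese enzyme of mitochondria, was at 18.7 ± 0.534 and 21.2 ± 2.29 FPKM (SD, n = 3; limma adjusted p = 0.32), with 21.0% of its 50-base words shared. Sod3, the secreted dismutase, was at 0.0510 to 0.288 FPKM over the 6 libraries and was not tested.

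Of the 2 further NRF2 targets among the members, 1 was tested. Me1, malic enzyme, a source of cytosolic NADPH, was at 44.7, 39.5 and 35.7 FPKM in wild type and at 25.1, 35.3 and 30.0 in the mutants. The mutants were lower without overlap, with wild-type column 2 and mutant column 1 close together (log2 fold change -0.40, SE 0.146, limma adjusted p = 0.17), and 22.9% of the gene's 50-base words are shared, mainly with Gm7049. Osgin1 was at 0.310 to 0.503 FPKM in wild type and 0.448 to 1.03 in the mutants and was not tested.

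**Figure D3:**
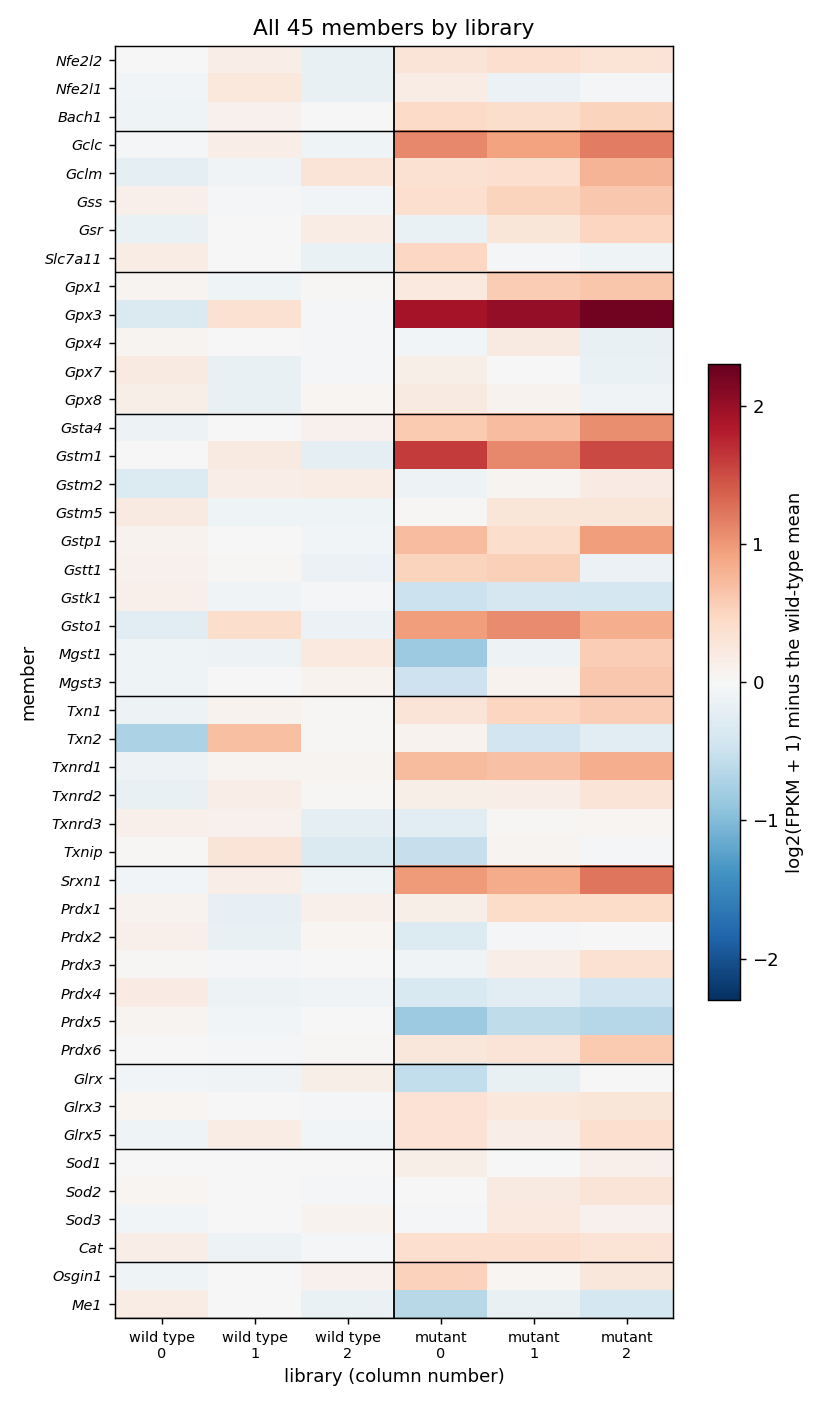
Difference of each member's log2(FPKM + 1) from its wild-type mean, in each of the 6 libraries (columns), for the 45 members (rows, ordered by role); red is above and blue below. The mutant columns are coloured alike for Gclc, Gpx3, Gstm1, Txnrd1, Srxn1 and Prdx5, while Gsr, Mgst1, Mgst3 and Txnip differ among them.

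The members were also grouped by where their proteins work. Of the 6 members of the mitochondria (Gstk1, Txn2, Txnrd2, Prdx3, Glrx5 and Sod2), Gstk1 fell and 0 rose, with a median log2 fold change of 0.15; at an unadjusted p under 0.05, 1 was higher. Prdx5, which also fell and whose protein is partly mitochondrial, was not in this list. Of the 3 members of the endoplasmic reticulum or secretory path (Gpx7, Gpx8 and Prdx4), 0 were called by limma, with a median of -0.01, and Prdx4 was lower at an unadjusted p under 0.05. Of the 6 selenoproteins, whose active site holds selenocysteine, Gpx3 and Txnrd1 rose and Gpx1, Gpx4, Txnrd2 and Txnrd3 did not pass (median 0.34). These 6 summed to 140 ± 1.54 FPKM in wild type and 220.2 ± 23.6 in the mutants (SD, n = 3). Gpx1, which did not pass (limma adjusted p = 0.085), held the largest part of that sum, at 85.9 ± 4.83 and 122 ± 18.1 FPKM (SD, n = 3). The difference between compartments was not tested.

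**Figure D4:**
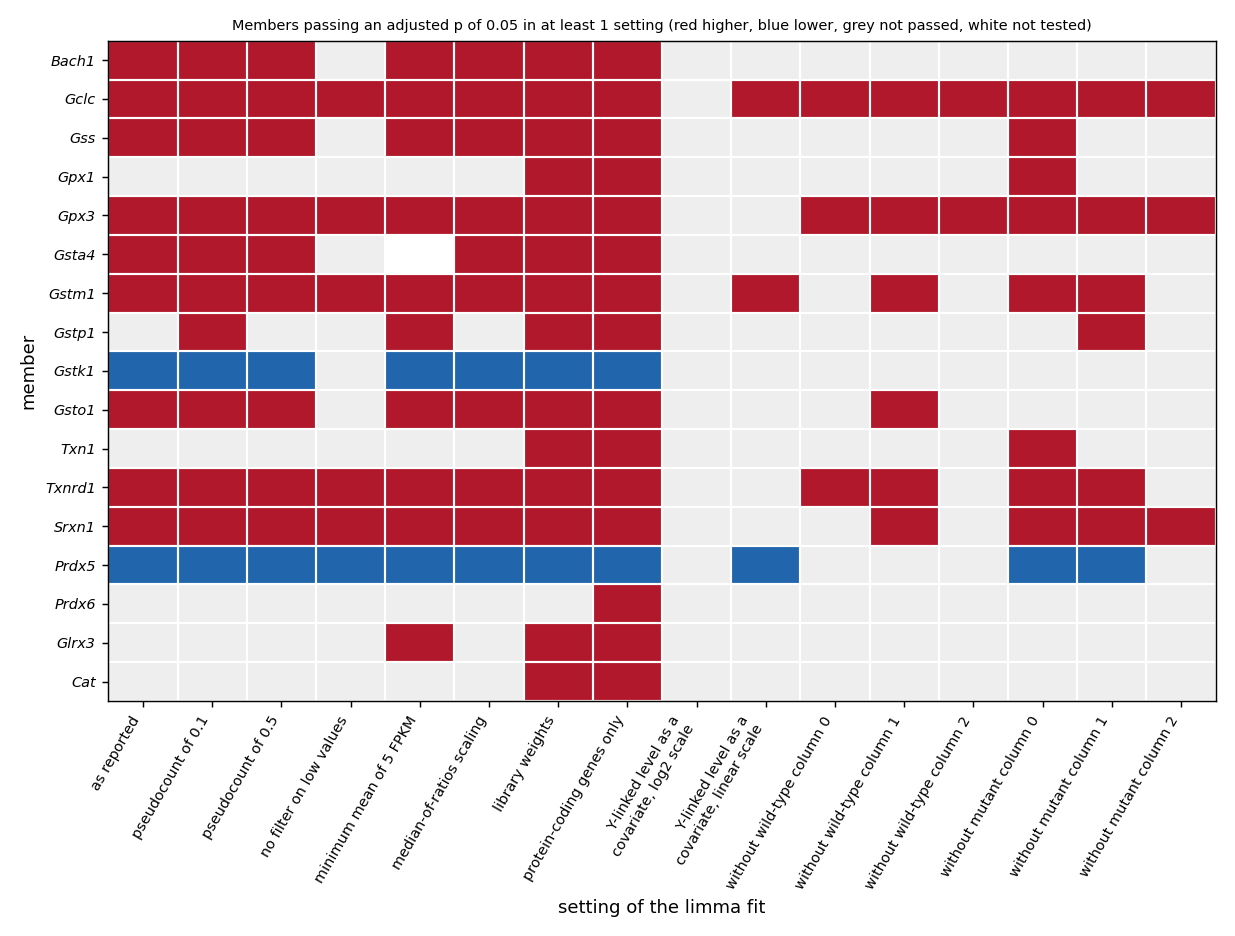
Calls of the members (rows: the 17 called in at least 1 setting) by setting of the limma fit (columns, the reported one at the left); red marks higher, blue lower, grey not passed and white not tested. Gclc and Gpx3 are called in each of the 6 fits without 1 library, and no member is called with the log2 Y-linked covariate. The replicate block, in which no member was called either, is not drawn.

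Over 5 lists of related genes outside the members, 5 of 68 tested genes were called (7.35%, beside 6.07% of all genes). The lists were chosen with earlier results of these data known, so their shares are descriptions and no test. Of 24 other genes of the NRF2 pathway, 23 were tested, 3 rose (13.0%, beside 3.48% of all genes) and 0 fell. The median log2 fold change of that list was 0.40. At an unadjusted limma p under 0.05, 9 of its 23 tested genes were higher (39.1%), beside 1773 of all 14012 genes tested. Ephx1, microsomal epoxide hydrolase, went from 3.19 ± 0.800 to 26.7 ± 2.67 FPKM (SD, n = 3; adjusted p = 0.001 by limma, and called without each library in turn). Nqo1, a quinone reductase, went from 75.7 ± 10.7 to 161 ± 30.8 FPKM (SD, n = 3; limma adjusted p = 0.029). Its call remained only without mutant column 0, with adjusted p = 0.035 there and 0.075 to 0.10 in the other 5 fits. Sqstm1, the autophagy receptor p62 that also binds KEAP1, went from 101 ± 6.82 to 141 ± 13.2 FPKM (SD, n = 3; limma adjusted p = 0.048, and 0.066 to 0.16 without each library in turn). Keap1 itself was at 23.0 ± 0.686 and 21.0 ± 1.18 FPKM (SD, n = 3; limma adjusted p = 0.31). The ferritin chains Ftl1 (243 and 336 FPKM) and Fth1 (179 and 258 FPKM) had the highest mean levels of the list and did not pass (limma adjusted p = 0.068 and 0.066).

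Of 29 other genes of glutathione use, transport and breakdown, 17 were tested with limma, 0 rose and 1 fell (median -0.10; unadjusted, p was under 0.05 for 2 higher and 2 lower genes). The gene that fell was Gstm4, another mu-class transferase, from 4.21 ± 0.481 to 2.01 ± 0.337 FPKM (SD, n = 3; limma adjusted p = 0.029). Its call remained only without mutant column 0 (adjusted p = 0.032, and 0.079 to 0.10 in the other 5 fits). The most abundant gene of that list was Slc3a2, the partner chain of Slc7a11. It was at 87.2, 87.3 and 74.3 FPKM in wild-type columns 0, 1 and 2. In the mutant columns it was at 151, 87.5 and 92.4 FPKM (limma adjusted p = 0.37), so mutant column 0 stood apart. Of 17 other genes with a thioredoxin fold or acting on methionine sulfoxide, 0 were called by limma (median -0.01), and Nxn and Park7 were lower at an unadjusted p under 0.05. Park7, an oxidation sensor, was at 113 and 101 FPKM (limma adjusted p = 0.18). Of 8 genes of selenoprotein synthesis, 1 was called by limma (median 0.02). This was Pstk, the kinase that acts on the selenocysteine transfer RNA, listed at 0 in the 3 wild-type columns and at 9.79, 11.7 and 10.9 FPKM in the mutant columns; a value listed at 0 may be a failed estimate, so no fold is given. Of 12 genes that produce oxidants, 3 were tested and 0 were called by limma, with Ncf1 lower at an unadjusted p under 0.05. The highest of these was Ero1l, the disulfide oxidase of the endoplasmic reticulum, at 45.3 ± 25.1 and 18.6 ± 9.18 FPKM (SD, n = 3; limma adjusted p = 0.22).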

How the data were processed

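RNA was measured in 3 wild-type and 3 Jab1 cKO libraries of rib chondrocytes, stranded total RNA depleted of ribosomal RNA and read as single ends of 50 bases, per the labels' protocols. The values are FPKM as deposited by the authors in 1 table; STAR, Cufflinks and Cuffdiff with build mm10 are named in the submitters' processing notes and CLC Genomics Workbench in the labels' protocols, while versions, strand settings and any scaling between libraries are not given in the sources used here. Read counts were not analysed, so no counting intervals are given. Column totals were 571180 to 631534 FPKM. If the common steps of low values are single reads, the other libraries' relative depth to wild-type column 0 was 0.987 to 1.44. Per the file headers columns run 0, 1 and 2 in each group, but the samples are numbered 0, 1 and 3. A sample was therefore assigned to 4 columns and a group alone to the other 2.

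Where the mean over the 6 libraries reached 1 FPKM, a gene was tested on log2(FPKM + 1) with limma 3.58.1 in R 4.3.3 (lmFit, eBayes with trend), two-sided, with Benjamini-Hochberg adjustment over all 14012 genes; called means an adjusted p under 0.05. Log2 fold changes are on that scale and understate the change of low genes. Fold values are ratios of mean FPKM. The fitting script was tested on simulated data. Genes were matched by symbol; Fth1 was on 2 rows, of which the one whose identifier carries that name in GENCODE M21 was used. Shared words are 50-base stretches of a gene's GENCODE M21 transcripts that also occur in another gene's. Promoters are from RefSeq. The members and lists were chosen with earlier results of these data known. Every called member is named with its values in each library, and other members and list genes were named by role, level or call. Alternatives were other pseudocounts, filters, scaling, library weights, coding genes only, Y-linked covariates, a replicate block and fits without each library.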

Additional observations from a re-analysis of the deposited data

How the results depend on the processing

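The 11 called members kept their direction under all 16 alternatives (Gsta4 was not tested at a minimum mean of 5 FPKM), and 19 other members changed direction in at least 1. Most alternatives could not reverse a called member. The groups of these 11 did not overlap, so other pseudocounts, library weights and left-out libraries keep the sign. Other filters, coding genes only and the replicate block leave the log2 fold change unchanged. Only the scaling and the Y-linked covariates could have reversed it. As reported, 9 members rose and 2 fell, and over all genes 487 rose and 363 fell. Without the filter on low values 5 members rose and 1 fell (295 and 166 over all genes). With library weights 14 members rose, and 816 and 672 genes rose and fell; with protein-coding genes only 15 members rose, and 741 and 632 genes rose and fell. With the Y-linked covariate on the log2 scale 0 members rose and 0 fell (25 and 1 over all genes; lowest adjusted p of the called members 0.12, with 0 of 11 called). On the linear scale, chosen after seeing the data, 2 members rose and 1 fell (315 and 153 over all genes). Without 1 library at a time, 2 to 8 members rose and 0 to 1 fell, and 99 to 377 genes rose and 66 to 289 fell. The cause of these shifts was not tested. Weights change the error model, and the gene filters change how many genes share the adjustment. The left-out libraries and the covariate leave fewer degrees of freedom. The covariate was also correlated with genotype (0.955 on the log2 scale and 0.798 on the linear scale).

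With the replicate block no member was called (0 rose and 0 fell, adjusted p = 0.054 to 0.17 for the 11 called members), and over all genes 44 rose and 16 fell. Same-numbered columns did not deviate together (correlations -0.033, -0.042 and -0.023). The labels give no litters, and these correlations cannot exclude a shared litter or batch.

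Members that changed direction had these log2 fold changes. With the log2 Y-linked covariate they were Nfe2l1 0.72, Gclm -0.11, Gsr -0.96, Gpx1 -0.35, Gpx7 0.37, Gstm2 -0.49, Gstm5 -0.30, Mgst3 -1.61, Txn1 -0.02, Txn2 0.91, Prdx1 -0.39, Prdx3 -0.55 and Sod2 -0.33. With the linear one they were Nfe2l1 0.24, Gsr -0.23, Gpx7 0.16, Gstm2 -0.15, Gstm5 -0.021, Mgst3 -0.59, Txn2 0.19, Prdx3 -0.14 and Sod2 -0.046. With median-of-ratios scaling Nfe2l1 was 0.00030, and with library weights Gpx4 was 0.055, Txnrd3 0.067 and Txnip 0.049. Without 1 library at a time the ranges were -0.091 to 0.11 for Nfe2l1, -0.075 to 0.21 for Slc7a11, -0.12 to 0.068 for Gpx4, -0.10 to 0.092 for Gpx7, -0.02 to 0.14 for Gpx8, -0.12 to 0.13 for Gstm2, -0.48 to 0.22 for Mgst1, -0.20 to 0.35 for Mgst3, -0.56 to 0.14 for Txn2, -0.17 to 0.032 for Txnrd3 and -0.33 to 0.011 for Txnip. Read depth per gene was not analysed here, which limits what can be said of Gsta4, Gstm2, Mgst3 and the 3 untested members.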
